A study of Mus musculus with 6 samples.

Results

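Erythroid genes and globins were measured in tooth germs of mice that lack the receptor Gpr115 and of wild-type littermates. They were chosen by symbol, as genes of globin chains, heme synthesis, the red cell membrane and erythroid transcription. Of 8 symbols 7 were found among the 20161 genes of the deposited normalized table: the β-globin genes Hbb-bs and Hbb-bt, the α-globin gene Hba-a1, Alas2, Slc4a1, Epb42 and Klf1. Ahsp was not analysed here. Levels are in CPM, read counts relative to a library size that was adjusted by the trimmed mean of M-values, and fold changes are Gpr115-KO over WT.

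Red cells arise from erythroblasts in blood-forming tissue, which at this age includes the bone marrow. Klf1, an erythroid Krüppel-like transcription factor, drives globin, heme and membrane genes in these nucleated precursors. The precursors lose their nucleus and become reticulocytes, which still hold globin and Alas2 messenger RNA, whereas mature red cells keep little RNA. A tooth germ can therefore carry erythroid RNA both in the blood of its vessels and with attached marrow or bone.

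The study sequenced total RNA from the first molars of C57BL/6 mice at postnatal day 7, to ask what changes in the tooth germ when Gpr115 (Adgrf4), an adhesion G protein-coupled receptor, is missing. There were 3 libraries from Gpr115-KO mice (labelled Gpr115-/-) and 3 from WT mice (labelled wild type). The labels call them littermates, name no promoter or Cre, and do not say which part of the gene was deleted or whether germs were pooled, so any p-value speaks of the spread of these libraries, which may be technical. Library totals were 8317302 to 10328654 counts in Gpr115-KO and 8833612 to 11122821 in WT.

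The libraries carried the expected tissue: the enamel matrix gene Ambn ran from 53962 to 140561 CPM in Gpr115-KO and from 73633 to 100452 CPM in WT, and the dentin gene Dspp from 2913 to 8899 CPM in Gpr115-KO and from 3745 to 7542 CPM in WT. Adgrf4 had 39.2, 20.6 and 27.5 CPM in Gpr115-KO and 67.1, 62.5 and 67.5 CPM in WT, lower in every Gpr115-KO library (log2 fold change −1.18, SE 0.21, adjusted p = 0.0887 by edgeR). Gpr115-KO replicate 2 stood apart in skeletal muscle genes, as given below.

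The stretches just upstream of the RefSeq start sites are shown for the 4 members with the highest level per length, because these members moved together over the libraries. They are RefSeq sequences on GRCm38.p6, 110 bases ending at the base before the RefSeq start, 5′ to 3′ on the strand of the gene. Capitals mark the letters of 4 motifs, searched on both strands: the GATA factor core, spelled AGATAA (a form spelled TGATAA was searched with it), the box of Krüppel-like factors such as Klf1, spelled CCNCNCCC, the CCAAT box and the TATA box, spelled TATAAA. Hbb-bs lies on chromosome 7 (chr7:103827929-103828038, minus strand), Hbb-bt on the same chromosome (chr7:103813924-103814033, minus strand), Hba-a1 on chromosome 11 (chr11:32283562-32283671, plus strand) and Alas2 on the X chromosome (chrX:150547307-150547416, plus strand). The GENCODE gene bounds given below start farther upstream than RefSeq. By those bounds the Hbb-bs and Hba-a1 stretches lie inside the gene, and the Hbb-bt and Alas2 stretches do so in part.
Hbb-bs: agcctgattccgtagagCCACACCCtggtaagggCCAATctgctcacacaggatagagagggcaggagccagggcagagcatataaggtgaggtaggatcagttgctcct
Hbb-bt: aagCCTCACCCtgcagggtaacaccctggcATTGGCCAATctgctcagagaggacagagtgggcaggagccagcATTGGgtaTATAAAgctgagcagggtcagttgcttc
Hba-a1: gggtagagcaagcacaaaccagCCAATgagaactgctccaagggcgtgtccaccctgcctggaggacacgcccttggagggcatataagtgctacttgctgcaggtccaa
Alas2: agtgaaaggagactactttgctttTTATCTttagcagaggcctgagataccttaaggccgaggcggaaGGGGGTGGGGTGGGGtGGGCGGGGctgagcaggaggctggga

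The β-globin stretches were identical at 83 of 112 aligned positions (74.1%), and each holds a forward CCNCNCCC box and a forward CCAAT box. Alas2 holds 4 overlapping or adjacent CCNCNCCC matches on the reverse strand and 1 AGATAA on the reverse strand. Over the 250 bases before the start, CCNCNCCC was found in 3 of the 6 members with an entry in the table and in 45.9% of 32851 promoters. Either form of the GATA core was found in 5 of these 6 members (Hbb-bs, Hba-a1, Alas2, Klf1 and Epb42) and in 16.6% of promoters. The CCAAT box was found in Hbb-bs, Hbb-bt, Hba-a1 and Klf1 and in 33.8% of promoters. The letters TATAAA were found in 12.4% of promoters and, among members, at bases −28 to −23 of Hbb-bt on the forward strand. Alas2 (−209 to −204) and Epb42 (−126 to −121) held them on the reverse strand and farther from the start. The printed Hbb-bs and Hba-a1 stretches hold the letters catataag near their ends, which this spelling does not match. A match is a description of letters and not a binding site.

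Per length of exon, the globin genes were the most abundant members. Hbb-bs (ENSMUSG00000052305; GRCm38 chromosome 7, 103826534 to 103828096, minus strand), a β chain of adult hemoglobin, had 144, 172 and 54.2 CPM in Gpr115-KO and 49.96, 51.4 and 57.9 CPM in WT. Gpr115-KO replicates 1 and 2 were above every WT library, and Gpr115-KO replicate 3 lay inside the WT range. The mean was 124 ± 61.6 CPM in Gpr115-KO and 53.1 ± 4.25 CPM in WT (SD, n = 3 each), a log2 fold change of 1.22 (SE 0.36, adjusted p = 0.270 by edgeR). Fewer or more cells of a type and less or more RNA per cell cannot be told apart in such bulk libraries.

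Hbb-bt (ENSMUSG00000073940; chromosome 7, 103812524 to 103813996, minus strand), the neighbouring adult β chain gene, had 19.7, 29.7 and 8.96 CPM in Gpr115-KO and 7.44, 6.48 and 7.32 CPM in WT. Here all 3 Gpr115-KO libraries were above all WT libraries, replicate 3 only narrowly. The log2 fold change was 1.45 (SE 0.37, adjusted p = 0.223 by edgeR). Hbb-bt and Hbb-bs transcripts share a stretch of 323 nt at 100% identity, and no source used here says how reads in it were assigned, so their split is uncertain.

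Hba-a1 (ENSMUSG00000069919; chromosome 11, 32283511 to 32284465, plus strand), an α chain of adult hemoglobin, had 113, 157 and 78.5 CPM in Gpr115-KO and 68.1, 72.7 and 78.9 CPM in WT. The same pair of Gpr115-KO libraries was above WT, and replicate 3 was again within the WT range. Its log2 fold change was 0.67 (SE 0.23, adjusted p = 0.292 by edgeR), the smallest of the 5 members tested, and it was 0.39 without Gpr115-KO replicate 2. Its twin Hba-a2, identical at 99.8% over 538 nt, had 1, 0 and 0 counts in Gpr115-KO and 1, 0 and 1 counts in WT, so the Hba-a1 row may hold reads of either gene or lack those that match both genes.

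Together the 3 globins took 0.0292%, 0.0346% and 0.0150% of all counts in Gpr115-KO and 0.0124%, 0.0130% and 0.0133% in WT. The Wilson 95% intervals, which cover counting error only, were 0.0281% to 0.0304%, 0.0334% to 0.0358% and 0.0143% to 0.0158% in Gpr115-KO replicates 1 to 3. In WT the highest upper bound was 0.0140%. On this unscaled share Gpr115-KO replicate 3 was thus just above WT, whereas on the scaled library size it had 142 CPM against 126, 131 and 144 CPM in WT. Globin RNA was a minor part of every library.

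**Figure D1:**
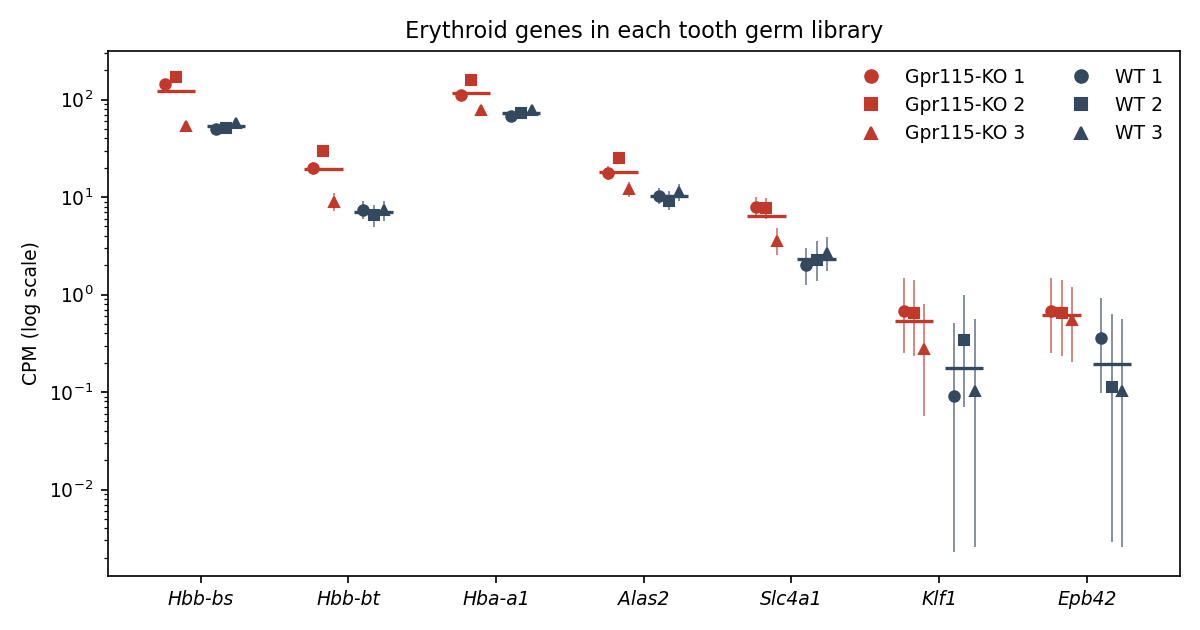
CPM (log axis) of the 7 erythroid genes in each library. Red points are Gpr115-KO and blue points WT, the shape gives the replicate, horizontal bars are group means and vertical lines are exact Poisson 95% intervals for counting error. Gpr115-KO replicates 1 and 2 lie above all WT libraries for each gene, and Gpr115-KO replicate 3 is close to or inside the WT range for the globins.

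Alas2 encodes the erythroid form of the enzyme that starts heme synthesis. Alas2 (ENSMUSG00000025270; chromosome X, 150547375 to 150570638, plus strand) had 17.8, 24.9 and 12.1 CPM in Gpr115-KO and 10.3, 9.21 and 11.2 CPM in WT. All Gpr115-KO libraries were above all WT libraries, replicate 3 by less than the spread within WT. The log2 fold change was 0.83 (SE 0.26, adjusted p = 0.268 by edgeR), and 0.54 without Gpr115-KO replicate 2. Alas2 shares 312 nt of annotated exon with Apex2, a DNA repair gene on the opposite strand, and without strand in the library their reads there cannot be told apart. Apex2 itself had 11.7, 13.9 and 10.7 CPM in Gpr115-KO and 9.52, 8.41 and 10.8 CPM in WT.

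Slc4a1 encodes band 3, the chloride and bicarbonate exchanger of the red cell membrane. Slc4a1 (ENSMUSG00000006574; chromosome 11, 102348824 to 102366203, minus strand) had 7.98, 7.70 and 3.57 CPM in Gpr115-KO and 1.99, 2.27 and 2.64 CPM in WT. The groups did not overlap, and here Gpr115-KO replicate 3 was 1.55 times the WT mean. The log2 fold change of 1.47 (SE 0.36, adjusted p = 0.196 by edgeR) was close to that of Hbb-bt.

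Epb42 and Klf1 were near the detection limit and did not pass the count filter, so they have no test. Epb42 (ENSMUSG00000023216; chromosome 2, 121017891 to 121037072, minus strand), which encodes protein 4.2 that binds band 3, had 6, 6 and 6 counts in Gpr115-KO and 4, 1 and 1 counts in WT. Klf1 (ENSMUSG00000054191; chromosome 8, 84901928 to 84905291, plus strand) had 6, 6 and 3 counts in Gpr115-KO and 1, 3 and 1 counts in WT. All Gpr115-KO values of Epb42 were above all of its WT values, and Klf1 overlapped between the groups. The ratio of summed CPM was 3.06 for both genes, with exact 95% counting intervals of 1.16 to 9.42 for Epb42 and 1.06 to 10.8 for Klf1 that leave out the spread between libraries.

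None of the 5 members tested passed edgeR's quasi-likelihood test at an adjusted p under 0.05, a call made for 0.15% of the 16011 genes tested and, upward, for 0.0375%. All 5 had an unadjusted p under 0.05 and a positive fold change, against 4.85% of all genes. The 5 moved together over the libraries and were chosen with earlier results of these data known, so they are not 5 independent results. In 3 of the 5, Hbb-bt, Alas2 and Slc4a1, all Gpr115-KO libraries were above all WT libraries, against 8.55% of genes. The members' median log2 fold change was 1.22, against 0.01 over all genes tested. DESeq2 called Hbb-bs, Hbb-bt and Slc4a1 (adjusted p = 0.0227, 0.0131 and 0.0360), in a fit that called 0.408% of 15694 genes higher. Without Gpr115-KO replicate 3 edgeR called Hbb-bs and Hbb-bt, with log2 fold changes of 1.58 and 1.80 (adjusted p = 0.00668 and 0.0218), among 0.0487% of 16440 genes called higher. Without a count filter it called Hbb-bt, Hba-a1, Alas2 and Slc4a1, among 0.463% of 29163 genes called higher. These were the only calls, 9 of 90 alternative fits of a tested member. For Hbb-bs the adjusted p by edgeR was 0.567 without Gpr115-KO replicate 2 and 0.798 without WT replicate 1.

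The difference was carried unevenly by the Gpr115-KO libraries. Taking each gene as a fold of its WT mean, the 7 members had a median of 2.79 in Gpr115-KO replicate 1 (1.54 to 3.85) and 3.33 in replicate 2 (2.15 to 4.198). In Gpr115-KO replicate 3 the median was 1.27 (1.02 to 2.85), and 4 of the 7 members, Hbb-bt, Alas2, Slc4a1 and Epb42, were above all WT libraries there. In replicates 1 and 2 all 7 were. Within WT the 5 tested members stayed between 0.866 and 1.15 of their means.

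**Figure D2:**
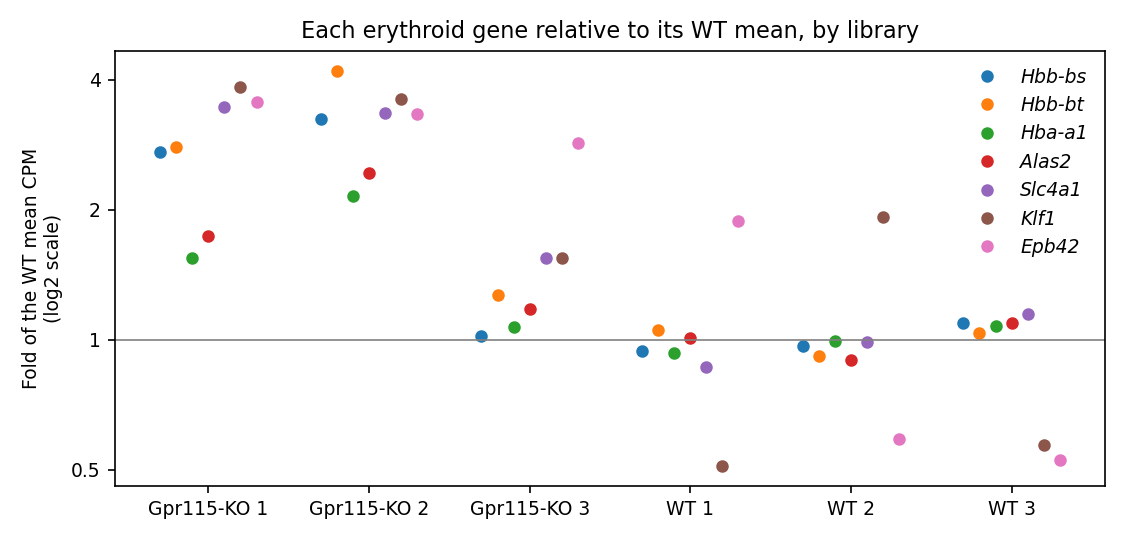
CPM of each erythroid gene as a fold of its WT mean (log2 axis), by library, with 1 colour for each gene. In Gpr115-KO replicates 1 and 2 Hba-a1 (1.54 and 2.15) and Alas2 (1.74 and 2.43) are the lowest of the members, and in Gpr115-KO replicate 3 the 3 globins lie at 1.02 to 1.27.

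Per kilobase of exon, the order of the tested members was the same in both groups except at the top. Hbb-bs had a mean of 161 CPM per kb in Gpr115-KO and 69.1 in WT, and Hba-a1 had 143 in Gpr115-KO and 90.2 in WT. Hbb-bs was the higher of the pair in Gpr115-KO replicates 1 and 2 (188 against 139, and 224 against 194 CPM per kb), while in Gpr115-KO replicate 3 (70.6 against 96.6) and in all 3 WT libraries Hba-a1 was higher. Hbb-bt followed at 27.7 CPM per kb in Gpr115-KO and 10.1 in WT, then Alas2 at 7.59 in Gpr115-KO and 4.26 in WT, and Slc4a1 at 1.31 in Gpr115-KO and 0.471 in WT. Klf1 (0.348 in Gpr115-KO and 0.116 in WT) and Epb42 (0.115 in Gpr115-KO and 0.0356 in WT) were lowest.

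Ratios between members within a library do not depend on how libraries are scaled. If the amount of erythroid material alone varied, with the same mix of red cell stages, these ratios would hold constant within counting error. That also needs reads assigned to the right gene and no RNA of these genes from other cells. Which of these conditions held was not tested. From counts, 9 ratios between members were computed, and 1 of Tfrc to Alas2. Tests were two-sided exact permutation tests over 3 against 3 libraries, which cannot give a p below 0.10, with Benjamini-Hochberg adjustment over the 10 ratios.

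The ratio of α to β globin set Gpr115-KO replicates 1 and 2 apart from the other 4 libraries. Hba-a1 counts were 0.688 and 0.779 times the summed Hbb-bs and Hbb-bt counts in Gpr115-KO replicates 1 and 2, against 1.24 in Gpr115-KO replicate 3 and 1.19, 1.26 and 1.21 in WT. The exact 95% intervals ended at 0.746 and 0.835 in the first pair and began at 1.07 or above in the other 4 libraries. Over genotypes the log2 ratio differed by −0.48 with overlapping groups (exact permutation p = 0.3, adjusted p = 0.429), by −0.73 without Gpr115-KO replicate 3 and by −0.31 without replicate 1. This ratio rests on how reads of the twin α genes were counted.

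Within the β pair, Hbb-bt was 13.6%, 17.3% and 16.5% of Hbb-bs in Gpr115-KO and 14.9%, 12.6% and 12.6% in WT, with overlapping intervals (exact permutation p = 0.2, adjusted p = 0.429). Alas2 was 6.41%, 6.94% and 8.52% of the summed globin counts in Gpr115-KO and 8.24%, 7.05% and 7.76% in WT. That ratio differed by −0.08 on the log2 scale (exact permutation p = 0.6, adjusted p = 0.6), and without Gpr115-KO replicate 1 the difference was 0.0043. In all 6 libraries Alas2 lay between 6.41% and 8.52% of globin, with overlapping counting intervals.

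The ratio of Slc4a1 to globin separated the groups. Slc4a1 was 2.88%, 2.14% and 2.52% of the summed globin counts in Gpr115-KO and 1.59%, 1.74% and 1.83% in WT. Every Gpr115-KO library was above every WT library, including Gpr115-KO replicate 3, whose summed globin CPM lay within the WT range. The log2 difference was 0.54 (exact permutation p = 0.1, the smallest possible, adjusted p = 0.333), while counting intervals of single libraries overlapped. Alas2 over Slc4a1 was correspondingly 2.23, 3.24 and 3.38 in Gpr115-KO and 5.18, 4.05 and 4.23 in WT, a log2 difference of −0.62 (exact permutation p = 0.1, adjusted p = 0.333).

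The ratios that use the rare members were too imprecise to separate the genotypes. Klf1 per summed globin count was 0.247%, 0.179% and 0.194% in Gpr115-KO and 0.0723%, 0.261% and 0.0705% in WT, and the exact 95% interval of Gpr115-KO replicate 3 ran from 0.000399 to 0.00567 as a ratio. Its log2 difference was 0.89 (exact permutation p = 0.4, adjusted p = 0.5). Klf1 over Alas2 differed by 0.98, Epb42 over globin by 1.089 and Epb42 over Slc4a1 by 0.55 on the log2 scale (exact permutation p = 0.3, 0.3 and 0.5). All 4 were higher on average in Gpr115-KO, with overlapping groups. With a library left out these differences ran from 0.57 to 1.52 for Klf1 over globin, 0.62 to 1.66 for Klf1 over Alas2, 0.70 to 1.72 for Epb42 over globin and 0.11 to 1.23 for Epb42 over Slc4a1. The highest came without WT replicate 2 for Klf1 and without WT replicate 1 for Epb42. With 0.5 added to each count Epb42 over Slc4a1 differed by 0.24.

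**Figure D3:**
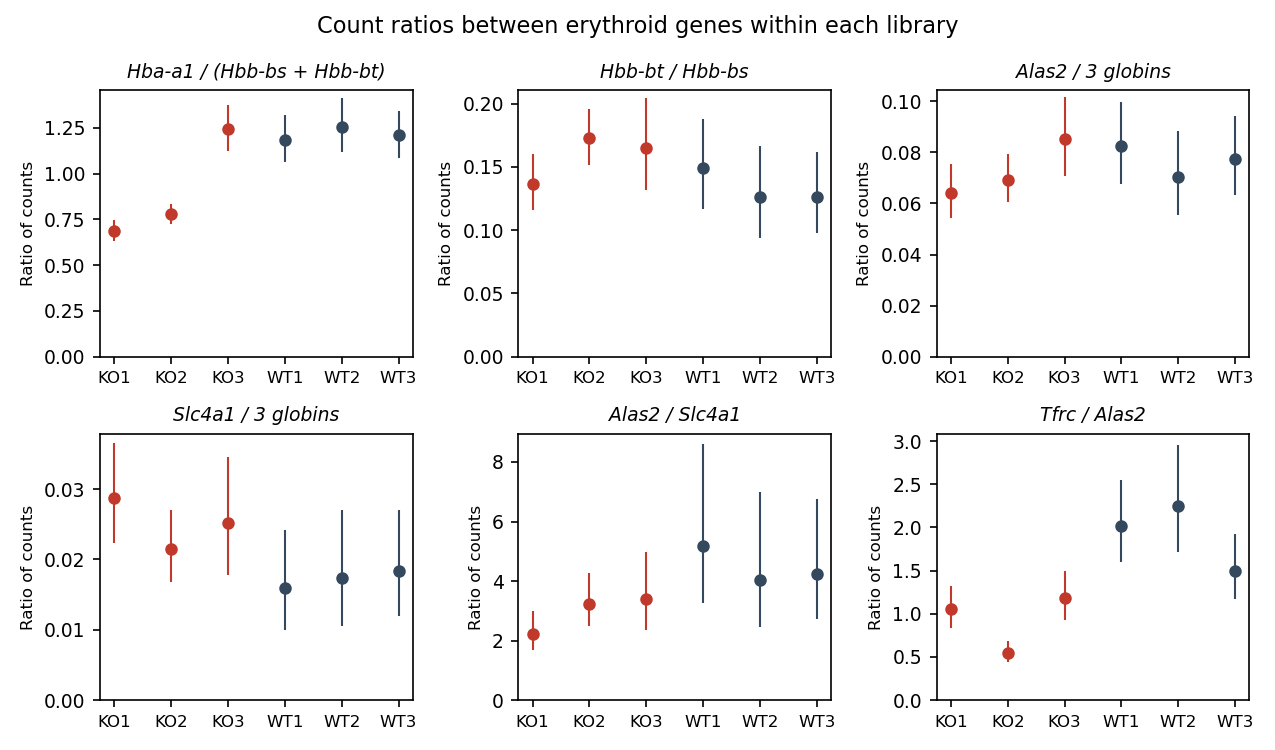
Count ratios between erythroid genes in each library, with exact 95% intervals for counting error. Red points are Gpr115-KO libraries 1 to 3 and blue points WT libraries 1 to 3, and every axis starts at 0. Hba-a1 over the β globins is low in Gpr115-KO replicates 1 and 2 (0.688 and 0.779), and Slc4a1 over the 3 globins is higher in all Gpr115-KO libraries.

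Tfrc, the transferrin receptor through which erythroblasts take up iron, was lower on average in Gpr115-KO, unlike Alas2. Its counts were 1.05, 0.549 and 1.18 times those of Alas2 in Gpr115-KO and 2.02, 2.25 and 1.5 times in WT, a log2 difference of −1.11 (exact permutation p = 0.1, adjusted p = 0.333). Tfrc is used by many dividing cells, so this ratio does not compare erythroid genes alone. Tfrc itself had 18.7, 13.7 and 14.3 CPM in Gpr115-KO and 20.9, 20.7 and 16.8 CPM in WT (log2 fold change −0.32, SE 0.20, adjusted p = 0.537 by edgeR).

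Other genes of the erythroid program were read from fixed lists. EdgeR called none of their tested members in either direction, a call made for only 0.15% of the 16011 genes tested. Over all genes tested 51.3% had a fold change above 0. Of 16 heme synthesis and transport genes, all tested, 12 had a fold change above 0 (median log2 0.10). Fech, the ferrochelatase that inserts iron into heme, had 51.6, 65.4 and 44.1 CPM in Gpr115-KO and 36.2, 32.2 and 44.1 CPM in WT, a log2 fold change of 0.52 (SE 0.19, adjusted p = 0.309 by edgeR). Its highest values were in the same Gpr115-KO replicates 2 and 1 as those of Alas2. Tmem14c and Clpx, which act in mitochondrial heme synthesis, stood at 0.09 (SE 0.16) and 0.19 (SE 0.16). Alad, the enzyme that follows the Alas2 step, stood at 0.27 (SE 0.25).

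Of 20 red cell membrane and skeleton genes 14 were tested, with 10 above 0 and a median of 0.13. The most abundant were Cd59a (0.16, SE 0.24), a complement inhibitor, Gypc (0.03, SE 0.23), a glycophorin, Epb41 (−0.16, SE 0.21), protein 4.1, and Kcnn4 (−0.91, SE 0.18, adjusted p = 0.103 by edgeR), a calcium-activated potassium channel. These 4 are not confined to red cells.

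Of 14 erythroid transcription factors and cofactors 8 were tested, and 7 of these lay below 0 (median −0.20). Klf3, a repressor that binds the same boxes as Klf1, had −0.84 (SE 0.27, adjusted p = 0.283 by edgeR), Bcl11a, a repressor of embryonic globins, −0.11 (SE 0.16), E2f4 −0.28 (SE 0.17) and the bridging factor Ldb1 0.21 (SE 0.22). These factors also work outside the erythroid lineage. The defining ones failed the filter: Gata1 had 1, 6 and 8 counts in Gpr115-KO and 1, 1 and 2 counts in WT, and Tal1 had 1, 6 and 2 counts in Gpr115-KO and 7, 2 and 0 counts in WT. Gpr115-KO replicate 1, high in globins, thus held 1 count of each.

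Of 11 cytokine and iron receptor genes 9 were tested and 7 lay below 0 (median −0.05), among them Kit, the stem cell factor receptor (−0.81, SE 0.37, adjusted p = 0.418 by edgeR), the iron transporter Slc11a2 (−0.29, SE 0.17) and the ferrireductase Steap3 (−0.36, SE 0.21). Of 22 late red cell and maturation genes 17 were tested and 15 lay above 0 (median 0.26). The most abundant were Prdx2, a peroxidase (0.13, SE 0.17), Bnip3l, which clears mitochondria from reticulocytes (0.10, SE 0.15), the carbonic anhydrase Car2 (0.14, SE 0.20) and Bpgm, which makes the hemoglobin ligand bisphosphoglycerate (0.21, SE 0.17). That list includes Rsad2, an interferon-induced gene (2.40, SE 0.48, adjusted p = 0.103 by edgeR), which is not specific to red cells.

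Among the other 14 globin genes listed, 12 had a row and 5 had no count in any library, including the embryonic chains Hbb-y, Hbb-bh1 and Hba-x. The only one tested was Cygb, cytoglobin of connective tissue cells, with 29.2, 41.4 and 16.01 CPM in Gpr115-KO and 33.3, 32.1 and 31.5 CPM in WT (log2 fold change −0.17, SE 0.28). The θ chain gene Hbq1b had 8, 4 and 9 counts in Gpr115-KO and 4, 3 and 4 counts in WT, and Hba-a2, Hbb-bh2, Hbq1a, Mb and Ngb had at most 12 counts in a library. Of 10 genes that clear hemoglobin and heme 9 were tested, 4 above and 5 below 0 (median −0.05). The ferritin chains Ftl1 and Fth1 stood at −0.14 (SE 0.19) and −0.06 (SE 0.25), the heme transporter Slc48a1 at 0.17 (SE 0.17) and the biliverdin reductase Blvra at −0.14 (SE 0.15).

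Other cells of blood and marrow were read beside the erythroid genes. Of 14 neutrophil genes 9 were tested, and all 9 lay above 0 (median 1.34), against 51.3% of all genes. None was called, against 0.15% of all genes. Their summed level was 49.0, 51.9 and 42.4 CPM in Gpr115-KO and 17.6, 25.7 and 26.7 CPM in WT. By these sums Gpr115-KO replicate 3 was above all WT libraries, while its summed globin CPM lay within the WT range. Single neutrophil genes differed in that library. S100a8 (1.10 CPM, WT 0.272 to 1.14), Mmp8 (7.32, WT 2.36 to 8.94) and Mmp9 (4.76, WT 4.57 to 5.62) lay within the WT range, and the other tested ones above it. Among the most abundant were the protease genes Mmp9 (0.61, SE 0.32) and Mmp8 (0.51, SE 0.43) and the myeloperoxidase gene Mpo (1.498, SE 0.33, adjusted p = 0.151 by edgeR). No member of that list was at 0 throughout.

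The 8 osteoclast genes, which share Mmp9 with the neutrophil list, summed to 61.2 to 85.2 CPM in Gpr115-KO and 49.4 to 58.2 CPM in WT. All 4 tested lay above 0, against 51.3% of all genes. Those not tested were near the detection limit and did not agree in direction. Mean CPM was lower in Gpr115-KO than in WT for Calcr (0.132 against 0.336), Ocstamp (0.325 against 0.480) and Dcstamp (0.556 against 0.823). It was higher in Gpr115-KO for Oscar (1.08 against 0.498). Platelet genes summed to 32.5 to 42.5 CPM in Gpr115-KO and 30.2 to 32.3 CPM in WT, mostly from Pf4, and 3 of 13 (Gp6, Gp9 and Treml1) were at 0 in every library. B cell genes had 55.8 to 73.8 CPM in Gpr115-KO and 64.4 to 78.0 CPM in WT, with Pax5 at 0 in every library, macrophage genes 153 to 183 CPM in Gpr115-KO and 149 to 158 CPM in WT, and endothelial genes 121 to 145 CPM in Gpr115-KO and 131 to 143 CPM in WT. The groups overlapped in the last 3 lists. The 11 skeletal muscle genes summed to 28.5, 301 and 73.9 CPM in Gpr115-KO and 68.4, 53.3 and 46.3 CPM in WT: muscle RNA was highest in the library highest in globins (Gpr115-KO replicate 2) and lowest in the next (Gpr115-KO replicate 1). The part of these cell types in the erythroid values was not tested.

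**Figure D4:**
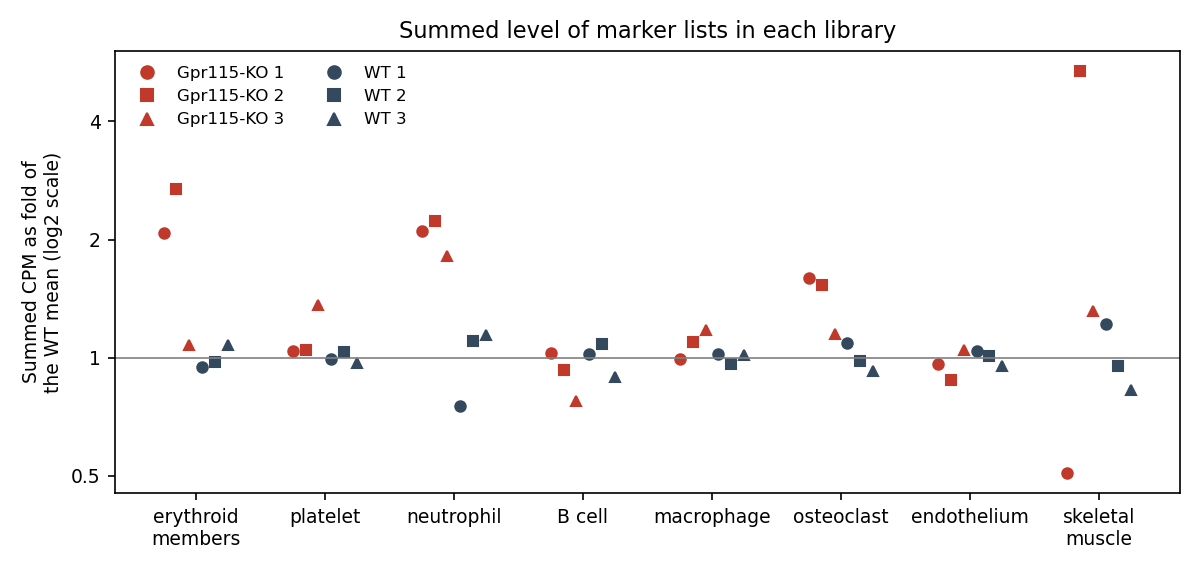
Summed CPM of each marker list as a fold of its WT mean (log2 axis), with red Gpr115-KO and blue WT points and a shape for each replicate. Erythroid members are raised in Gpr115-KO replicates 1 and 2 (304 and 393 CPM) and not in replicate 3 (158 CPM, against 138 to 158 CPM in WT), whereas neutrophil genes are above all WT libraries in all 3 Gpr115-KO libraries.

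Genes whose pattern over the 6 libraries was most like that of the 5 tested members were found by the root mean square difference of centred log2 CPM, among 11588 genes with a mean log2 CPM of at least 1. The members themselves differed from their mean pattern by 0.14 (Hbb-bs) to 0.24 (Hba-a1), and the median over all genes ranked was 0.69. The nearest was Timm8a1, a mitochondrial import gene, at 0.10, with 6.27, 8.87 and 3.48 CPM in Gpr115-KO and 2.63, 2.96 and 3.56 CPM in WT. It was followed by Lrfn3 (0.18), Phf1 (0.21), Bcl2l2 (0.21), Nat8f1 (0.21), Anks6 (0.22), Desi1 (0.24) and Lrrc8b (0.24). None of these 8 was called by edgeR (adjusted p 0.268 to 0.415).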

How the data were processed

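TRIzol RNA went into Nextera XT libraries (no strand marking), sequenced as paired ends on a HiSeq1500, per the labels' protocols. STAR 2.5.2a and the build GRCm38 (mm10) are named in the submitters' processing notes. No source used here names the counter or annotation. Raw counts were deposited for 48709 genes, plus 15 transgene rows (at most 8 counts in a library) that were left out. The deposited normalized signal is CPM scaled by TMM. Divided by 1 step for each column, 100% of its values were whole reads (tolerance 0.01) equal to the counts, and edgeR on them, an alternative added after seeing the data, called 6 genes higher and 18 lower, as on the counts.

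Counts were tested with edgeR 4.0.16 (R 4.3.3): filterByExpr (minimum count 10, total 15; 16011 genes), TMM, a robust quasi-likelihood F test with genotype as the only term, two-sided, Benjamini-Hochberg over all genes, called under 0.05. SE is the absolute log2 fold change over the root of F. One count stood for 0.0907 to 0.114 CPM by library, and none for at most 0.272 to 0.342 CPM (3 counts, counting error only). Coordinates and exon lengths are from GENCODE vM21 (same build), promoters from RefSeq for 6 of 7 members, and near-identical transcripts from blastn 2.17.0 (95% over at least 150 nt). Exact tests used scipy 1.17.1.

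All pairs of libraries differed beyond sampling noise (chi-square per degree of freedom 16.0 to 87.1). Replicate numbers were not used as pairs in the main fit, and whether they mark pairs is not known. The members and lists were chosen with earlier results of these data known. Genes were named by rule: all members, the globins with a count, the 4 most abundant tested genes of each other erythroid list, up to 3 of each marker list where they add to the text, and the 8 most alike. Alternatives were DESeq2 1.42.0, limma 3.58.1 (voom and trend), other scaling, filters and thresholds, a length offset, the replicate block and each library left out.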

Additional observations from a re-analysis of the deposited data

How the results depend on the processing

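The fold changes of the 5 tested members stayed above 0 under every alternative run (18 for each), between 0.39 and 1.80 on the log2 scale. The number of members called, 0, was 4 without a count filter, 3 with DESeq2 and 0 to 2 with a library left out. Without a filter edgeR called Hbb-bt (log2 fold change 1.45, adjusted p = 0.000186), Slc4a1 (1.46, 0.00871), Hba-a1 (0.66, 0.0314) and Alas2 (0.83, 0.0393) and not Hbb-bs (0.379), and gave Klf1 1.54 (SE 1.10) and Epb42 1.59 (SE 1.02), neither called. DESeq2 gave 1.22 for Hbb-bs, 1.46 for Hbb-bt and 1.48 for Slc4a1. With a library left out the ranges were 0.90 to 1.58 for Hbb-bs and 1.01 to 1.80 for Hbb-bt, lowest without Gpr115-KO replicate 2 and highest without replicate 3.

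Over all genes the counts of 6 higher and 18 lower became 135 and 365 without a filter, 64 and 179 with DESeq2, 18 and 54 with the replicate block, 16 and 35 at an adjusted p under 0.1, and 5 to 10 and 7 to 39 with a library left out. On library totals alone 11 were lower. The causes were not tested. Same-numbered libraries had correlations of 0.30, 0.0078 and −0.062 around their group means, and other pairs −0.21 to 0.20. So few libraries cannot show whether the numbers mark pairs. The block called none of the members.

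Of 80 alternative values of the 10 ratios 1 changed sign: Alas2 over globins, −0.20 to 0.0043 with a library left out. A pair of planned ratios with Ahsp was not run. Depth limits Klf1 and Epb42, and 3 libraries a group limit every ratio test.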
